A study of Mus musculus with 52 samples.

Results

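The genes examined here make, conjugate and move bile acids in the liver. They are 10 genes, of 10755 with a tested probe set, chosen by name: Cyp7a1, Cyp8b1, Cyp27a1, Cyp7b1, Slc27a5, Baat, Nr1h4, Nr0b2, Slc10a1 and Abcb11. The array annotation gave them 14 probe sets of the 22626 on the array (Affymetrix control probe sets aside), and all 14 were among the 18349 tested. Cyp7a1, Cyp7b1, Slc10a1 and Baat had 2 probe sets each. Each of the 14 lay above the floor on the signal in 52 of 52 arrays, so that none was lost to the filter on low values.

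The arrays measured liver RNA of 9-week-old male B6C3F1 mice, a cross of C57BL/6 and C3H, after a single intraperitoneal injection. Of the 8 chemicals, 6 were genotoxic, which means that they damage DNA. The alkylating agents were ENU (N-ethyl-N-nitrosourea) at 150 mg/kg, DMN (dimethylnitrosamine) at 5 mg/kg and DPN (dipropylnitrosamine) at 250 mg/kg. The aromatic mutagens were AAT (o-aminoazotoluene) at 300 mg/kg, DMBA (7,12-dimethylbenz[a]anthracene) at 20 mg/kg and DBP (dibenzo[a,l]pyrene) at 6 mg/kg. The 2 non-genotoxic chemicals were EtOH (ethanol) at 1000 mg/kg and PB (phenobarbital) at 30 mg/kg. Livers were taken at 4 h and 20 h and again after 14 and 28 days. Each array carried RNA pooled from 5 mice and there was 1 array per chemical and time, so the spread between mice cannot be measured. Vehicle controls were 5 arrays at each time: 1 olive oil control shared by the 3 aromatic mutagens, 1 saline control each for ENU, DMN and DPN, and 1 saline control shared by EtOH and PB. Controls were injected too, and no uninjected liver was among the 52 arrays. Neither the labels nor the methods give the hour of the day at which livers were taken.

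Bile acids are made from cholesterol in hepatocytes. In the classic pathway Cyp7a1, the rate-limiting enzyme, adds the first hydroxyl group and Cyp8b1 a further one that gives cholic acid; in the alternative pathway Cyp27a1 oxidises the side chain and Cyp7b1 acts on the oxysterols. Slc27a5 and Baat then join the acids to an amino acid. Abcb11 pumps the product into bile and Slc10a1 takes returning bile acids up from portal blood. The nuclear receptor Nr1h4 (FXR) senses bile acids and raises Nr0b2 (SHP), a co-repressor of Cyp7a1 and Cyp8b1, and Abcb11. Cyp7a1 and Nr0b2 are also known to follow the day-night cycle and feeding.

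By RefSeq (GRCm38.p6), Cyp7a1 spans chr4:6265612-6275632, Nr0b2 chr4:133553376-133556686, Abcb11 chr2:69238282-69342616 and Slc10a1 chr12:80953185-80968705. Upstream sequence from the same source was at hand for 6 of the 10 genes, Cyp8b1, Cyp27a1, Nr0b2, Nr1h4, Slc10a1 and Abcb11. The 250 bases before the start are shown for the regulator Nr0b2 and the transporters Slc10a1 and Abcb11, the members with such sequence on which the results below turn. They are written 5′ to 3′ in the direction of the gene, with matched motifs in capitals. Nr0b2 is shown from chr4:133553126-133553375 on the plus strand, Slc10a1 (the first of 2 starts) from chr12:80968706-80968955 on the minus strand and Abcb11 from chr2:69342617-69342866 on the minus strand.
Nr0b2: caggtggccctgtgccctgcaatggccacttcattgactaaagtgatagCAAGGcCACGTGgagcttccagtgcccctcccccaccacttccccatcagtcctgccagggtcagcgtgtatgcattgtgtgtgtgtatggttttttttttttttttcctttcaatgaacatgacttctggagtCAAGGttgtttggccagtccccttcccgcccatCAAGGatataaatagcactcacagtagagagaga
Slc10a1: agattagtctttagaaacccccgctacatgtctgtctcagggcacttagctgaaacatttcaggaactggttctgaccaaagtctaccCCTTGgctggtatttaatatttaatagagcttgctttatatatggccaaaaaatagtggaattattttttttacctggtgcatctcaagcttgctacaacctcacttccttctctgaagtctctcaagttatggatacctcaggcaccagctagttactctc
Abcb11: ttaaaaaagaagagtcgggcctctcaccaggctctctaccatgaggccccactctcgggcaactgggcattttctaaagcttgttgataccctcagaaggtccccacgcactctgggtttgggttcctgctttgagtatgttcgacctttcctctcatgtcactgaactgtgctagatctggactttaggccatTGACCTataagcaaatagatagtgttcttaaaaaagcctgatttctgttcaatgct

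The motifs searched, on both strands, were the D-box TTATGNAA, the LRH-1 core TCAAGGNCA and its part CAAGG (these overlap), the nuclear receptor half-site AGGTCA and the E-box CACGTG. They occur in 3.07%, 1.39%, 46.0%, 14.0% and 6.02% of 32851 mouse promoter windows of the same length. The Nr0b2 window held CAAGG at 3 places, the first base of each lying at -201, -67 and -34 from the start, and 1 CACGTG at -195. The Abcb11 window held the half-site on the minus strand (TGACCT as printed) at -56, and the Slc10a1 window CAAGG on the minus strand (CCTTG as printed) at -162. Cyp8b1 held CAAGG at -60 and Cyp27a1 a D-box at -60. These are matches of letters and were not tested as sites.

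Signals were scaled to the array median, floored and given as log2, and a difference of 1 is 2-fold. Array medians ran from 17.9 to 205 before scaling, and the extremes were the PB array at 28 days (17.9) and, among controls, the ENU (40.5) and DMN (205) saline arrays at 14 days. The EtOH array at 20 h had a log2 ratio of 3′ to 5′ Gapdh probe sets of 3.13, against -0.51 to 0.34 in the other 51 arrays, as is known from degraded RNA. At 20 h the saline array of the EtOH and PB set carried Cyp2b10, which phenobarbital is known to induce, at 11.48 and the PB array at 8.25, so these 2 arrays went against their labels. The non-genotoxic class at 20 h consists of this set alone and has no value without it. Without the set, the means of the other 4 controls of 20 h were 8.94 for Nr0b2, 10.06 for Cyp7a1, 12.19 for Slc10a1 and 11.32 for Abcb11, beside 9.09, 9.87, 12.16 and 11.32 with it, and the counts over all times for EtOH and PB given below were 0 of 14 with and without it. Hepatocyte markers had a summed level of log2 16.26 to 16.87 in the 20 controls, and 3 of 8 cholangiocyte markers were tested, with a summed level of 4.90 to 6.87. In pooled tissue, a lower level per cell and fewer cells of a type cannot be told apart.

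The first comparison asked how the genes stood in liver that had received only vehicle, 4 h after the injection and later. Nr0b2 was lowest at 4 h and its mean was about 2-fold higher at each later time, a rise that passed the test at 14 and 28 days. At 14 days Cyp7a1 and Slc10a1 were lower than at 4 h. At 4 h the Nr0b2 log2 signal was 7.60 in the ENU control, 8.24 in the DMN control, 8.10 in the DPN control, 7.43 in the EtOH and PB control and 7.68 in olive oil. At 20 h these controls stood at 8.45, 9.70, 8.81, 9.68 and 8.80, in the same order. At 14 days they stood at 8.51, 9.22, 8.37, 9.23 and 8.28, and at 28 days at 8.43, 9.17, 8.99, 9.07 and 9.22. All 15 later controls thus lay above all 5 controls of 4 h (highest 8.24, lowest later 8.28), in each of the 5 control sets. The means were 7.81 ± 0.34 (SD, n = 5) at 4 h, 9.09 ± 0.57 at 20 h, 8.72 ± 0.47 at 14 days and 8.98 ± 0.32 at 28 days, each of 5 arrays.

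**Figure D1:**
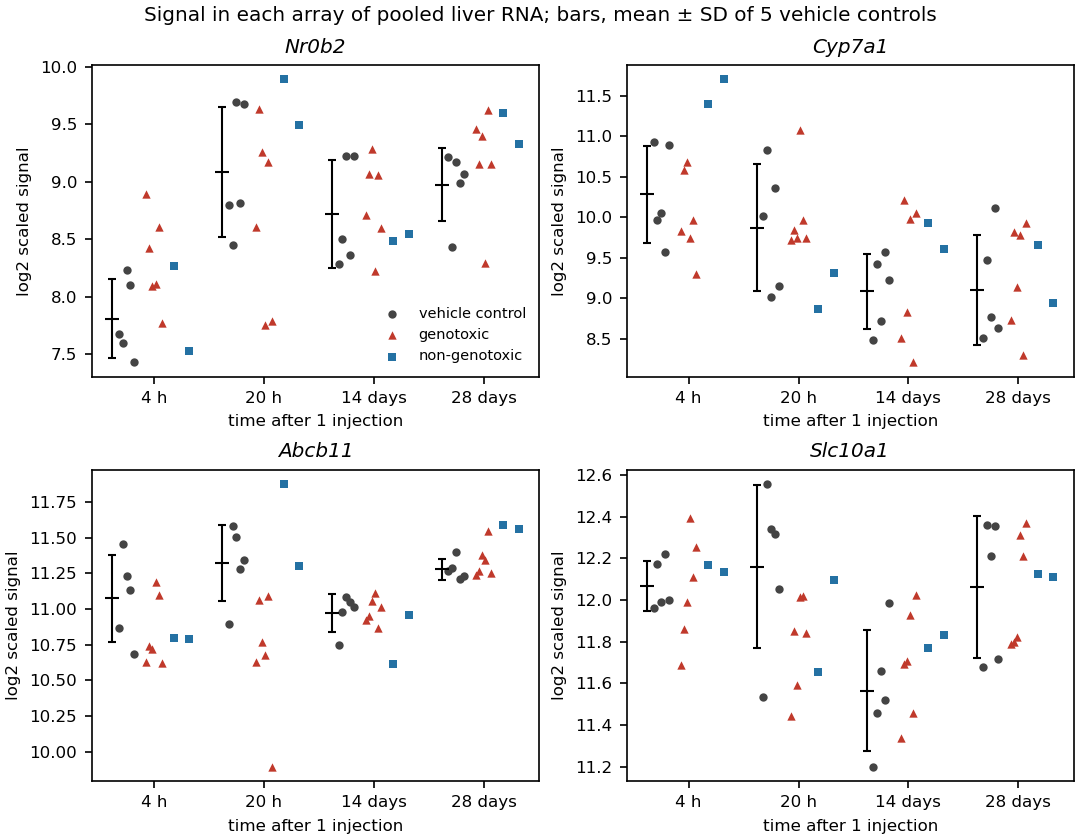
Log2 scaled signal of Nr0b2, Cyp7a1, Abcb11 and Slc10a1 (vertical axes, which differ between panels and do not start at 0) in all 52 arrays by time after injection. Grey circles are vehicle controls with their mean ± SD (n = 5), red triangles genotoxic and blue squares non-genotoxic chemicals; the 5 Nr0b2 controls at 4 h (7.43 to 8.24) lie below all 15 later controls (8.28 to 9.70).

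Of all 18349 probe sets tested, 3 (0.0163%) had every 4 h control below every later control, namely those of Nr0b2, Kcnk4 (5.54 against 5.66, close to the floor of 5.02) and Vasn (7.725 against 7.732). Kcnk4 and Vasn are named because of this count. In the other direction, 12 probe sets had every 4 h control above every later control, and 0.0817% of all tested separated either way. The separation of Nr0b2 was also seen after scaling to the 75th percentile (8.24 against 8.36) and after quantile normalization (8.24 against 8.34), but not in the values as deposited, where the highest 4 h control was 8.23 and the lowest later control 7.59. At 20 h the saline control that carried much Cyp2b10 had 9.68 and the PB array of that time 9.50, so that the order is the same whichever of them was the control.

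By limma over the 20 controls, with the control set as a block and Benjamini-Hochberg adjustment over all probe sets, Nr0b2 was higher than at 4 h by 0.91 (SE 0.20, adjusted p = 0.0141) at 14 days and by 1.17 (SE 0.20, adjusted p = 0.0316) at 28 days. The difference at 20 h had the largest estimate, 1.28 (SE 0.20), and did not pass (limma, adjusted p = 0.0593). Without the EtOH and PB set it was 1.04 (limma, adjusted p = 0.203). The call at 14 days was lost without the olive oil, the ENU or the DPN control set (limma, adjusted p = 0.0549, 0.0635 and 0.0511) and that at 28 days without any 1 of the 5 sets (limma, adjusted p from 0.0668 to 0.215), with estimates that remained between 0.69 and 1.25.

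Cyp7a1 went the other way at the late times. Its log2 signal at 4 h was 9.96, 10.05, 9.58, 10.89 (ENU, DMN, DPN, and EtOH and PB controls) and 10.94 (olive oil). At 14 days these controls read 9.43, 8.72, 9.57, 9.23 and 8.49, and at 28 days 9.48, 8.77, 10.12, 8.64 and 8.51. The 14-day values all lay below the lowest 4 h value, but only just. The highest at 14 days was 9.57 and the lowest at 4 h 9.58, both in DPN controls. How many of all probe sets separated in this way at 14 days was not counted, so the separation cannot be read as particular to Cyp7a1. By limma 11.5% of all probe sets were called at 14 days, and 1762 of those 2117 calls were lower. At 28 days 1 of 5 values, the DPN control, lay within the range of 4 h. The 20 h controls spread from 9.02 to 10.83 around a mean of 9.87 ± 0.78 (SD, n = 5). The fall of 1.20 at 14 days passed (SE 0.36, limma, adjusted p = 0.0461), as did that of the second probe set, which fell by 1.32 (limma, adjusted p = 0.0365). The similar estimate of -1.18 at 28 days did not pass (SE 0.36, limma, adjusted p = 0.280). Leaving out any 1 control set ended the call of the first probe set at 14 days (estimates -0.88 to -1.49, limma, adjusted p from 0.0720 to 0.224).

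Of the transporters, the uptake carrier Slc10a1 had a mean of 12.07 ± 0.12 (SD, n = 5) at 4 h, 12.16 ± 0.39 at 20 h, 11.57 ± 0.29 at 14 days and 12.06 ± 0.34 at 28 days, with n = 5 at each. It fell by 0.50 at 14 days (SE 0.14, limma, adjusted p = 0.0388), and its second probe set fell by 0.41 (limma, adjusted p = 0.0447). At 14 days the controls read 11.46, 11.66, 11.52 and 11.99 in saline and 11.20 in olive oil, and the EtOH and PB control reached into the range of 4 h, 11.96 to 12.22. The call was lost without the olive oil, ENU, DMN or DPN set (limma, adjusted p from 0.0790 to 0.177) and was kept without the EtOH and PB set (-0.63, limma, adjusted p = 0.00700). The export pump Abcb11 had means of 11.07 ± 0.30, 11.32 ± 0.27, 10.97 ± 0.13 and 11.28 ± 0.07 (SD, n = 5 each) at 4 h, 20 h, 14 days and 28 days, and none of its differences from 4 h passed (limma, adjusted p = 0.579 at 20 h).

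Slc27a5, the ligase that activates bile acids, read -0.30 (SE 0.09, limma, adjusted p = 0.0522) at 14 days, and the receptor Nr1h4 read -0.42 (SE 0.14, limma, adjusted p = 0.0576). For Nr1h4 the ENU and DPN controls stood above the other 3 at 4 h, 20 h and 28 days (9.45 and 9.53 against 9.09 to 9.21 at 4 h). The sterol hydroxylase Cyp8b1, which Nr0b2 is known to repress, had means of 11.12 ± 0.23, 11.25 ± 0.35, 10.93 ± 0.24 and 11.19 ± 0.17 (SD, n = 5 each) over the 4 times, a range within its spread between controls. Cyp27a1 ranged from 11.63 to 11.87 and Cyp7b1 from 11.65 to 12.20 in the means of the 4 times, and no difference from 4 h passed for either. Baat, which joins bile acids to an amino acid, gave no single answer. Its dimmer probe set was 0.51 higher at 14 days (limma, adjusted p = 0.0497), its brighter one -0.07 (SE 0.11), and the 2 probe sets correlated at r = -0.32 over the 52 arrays. The paired probe sets of Cyp7a1, Cyp7b1 and Slc10a1 correlated at 0.89, 0.91 and 0.83.

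**Figure D2:**
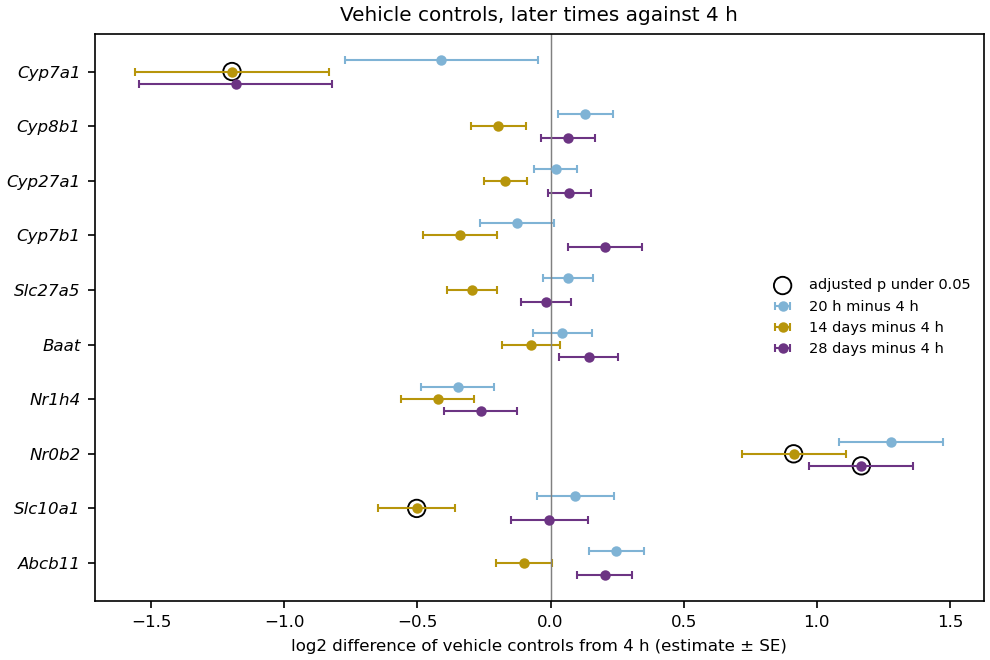
Limma estimates ± SE (horizontal axis, log2 difference from the 4 h controls) for 1 probe set of each of the 10 genes at the 3 later times, from 20 vehicle controls. Black rings mark an adjusted p under 0.05: Nr0b2 at 14 days (0.91) and 28 days (1.17), Cyp7a1 (-1.20) and Slc10a1 (-0.50) at 14 days.

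Counted over the 14 probe sets, 6 (42.9%) were called at 14 days, against 11.5% of all probe sets tested. Of these 6, 4 were lower (both of Cyp7a1 and of Slc10a1) and 2 higher (Nr0b2 and the dim probe set of Baat). At 28 days 1 of 14 (7.14%) was called, against 0.196%, and at 20 h 0 of 14, against 0.0109%, with 3 of the 10 genes at an unadjusted p under 0.05, as were 7.59% of all probe sets. The count at 14 days ranged from 0 (without the olive oil, ENU or DPN set) through 1 (without the DMN set) to 7 (without the EtOH and PB set). It was 0 without the ENU and DMN controls of 14 days, the arrays with medians of 40.5 and 205, an alternative chosen after the data were seen. The median of the 10 genes at 14 days was -0.25, beside -0.07 for all probe sets.

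Other gene lists moved between the same controls. Of 8 acute phase genes, 7 were called lower at 14 days (median of the list -2.27; Saa2 at -3.89 and Lcn2 at -3.05) and 0 of 8 at 28 days (median -1.67). The summed level of that list was 14.17 to 15.40 at 4 h, 14.13 to 15.24 at 20 h, 13.45 to 14.07 at 14 days and 13.62 to 14.90 at 28 days. Of 10 tested hepatocyte markers 0 were called at any time, with a median of -0.14 at 14 days, and 1 of 6 Kupffer cell and 1 of 5 endothelial markers were called lower there. Of 11 clock genes 0 were called at any time by limma, and the list went both ways. Its median was -0.19 at 20 h, -0.22 at 14 days and -0.24 at 28 days. At these times 4, 5 and 3 genes were above 0 and 7, 6 and 8 below. Dbp, a clock output factor, read -1.52 at 20 h, -0.83 at 14 days and -1.51 at 28 days, and Arntl 1.08, 0.54 and 1.23. These 2 genes were picked from the list and do not stand for it. The part of these lists in the differences of Nr0b2, Cyp7a1 and Slc10a1 was not tested, and the age of the mice and the time since injection cannot be told apart in this design.

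Other genes of the pathway, 32 tested of a list of 38, gave 0 of 32 called between controls at 20 h and at 28 days. At 14 days 4 of 32 (12.5%) were called, all lower, against 11.5% of all probe sets, of which 1762 of 2117 calls were lower, so the share is near the background. Cyp39a1, an oxysterol hydroxylase, fell by 1.09 (SE 0.16, limma, adjusted p = 0.00241), from 7.30 to 8.34 in the controls of 4 h to 6.10 to 7.08. Hsd17b4, which acts in the peroxisomal shortening of the side chain, fell by 0.44 (limma, adjusted p = 0.0167), Nr1i3 (CAR), a receptor for drugs and bile acid by-products, by 0.48 (limma, adjusted p = 0.0400), and Hnf4a, a hepatocyte transcription factor, by 0.34 (limma, adjusted p = 0.0198). Nr1i2 (PXR) read -0.50 (limma, adjusted p = 0.0904), Slco1a1 -0.26, Abcc2 -0.33 and Abcc3 -0.33, none of which passed. Estimates for Hsd3b7, an early enzyme common to both pathways, were 0.45 at 20 h and 0.43 at 28 days (limma, adjusted p = 0.365 and 0.302). Abcb4, Slco1a4, Slco1b2, Akr1d1, Nr5a2 and Fgfr4 had estimates between -0.21 and 0.18 at every later time, and Abcc4 had no tested probe set.

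The second comparison asked whether the genotoxic and the non-genotoxic chemicals changed the genes. At each time the 13 arrays were fitted together by limma with the control set as a block. No member was called for the genotoxic class at 4 h, 20 h, 14 days or 28 days (0 of 14 probe sets, against 0% of all tested at each of these times). At an unadjusted p under 0.05 there were 3, 1, 1 and 1 of the 10 genes, while 9.73%, 4.62%, 11.8% and 6.08% of all probe sets were. For the non-genotoxic class 0 of 14 were called, against 0.136% at 4 h, 0.153% at 20 h, 0.12% at 14 days and 1.02% at 28 days, and 0, 0, 0 and 3 of the 10 genes had an unadjusted p under 0.05, while 3.51%, 5.49%, 3.21% and 15.5% of all probe sets did.

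The log2 ratios of the 32 treated arrays to their own controls describe single pools and carry no test. Over 10 genes and 32 arrays there were 320 ratios, of which 8 (2.5%) reached 2-fold either way, against 3.13% over all probe sets tested. They belonged to Cyp7a1 (4), Nr0b2 (2), Abcb11 (1) and Cyp7b1 (1). As a yardstick, the largest difference between any 2 of the 4 saline controls of that time was taken for each gene. These controls are separate pools from separate control sets, so it holds differences between mice and sets as well as between arrays. At 20 h it includes the saline array that carried much Cyp2b10. Of the 320 ratios 37 (11.6%) lay beyond this difference, while the share over all probe sets averaged 17.5%. By SD of its 32 ratios Cyp7a1 varied most among the 10 (0.60), followed by Nr0b2 (0.54), and for Baat the brighter probe set gave 0.22 and the dimmer one, which ran from -0.94 to 1.66, gave 0.62.

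**Figure D3:**
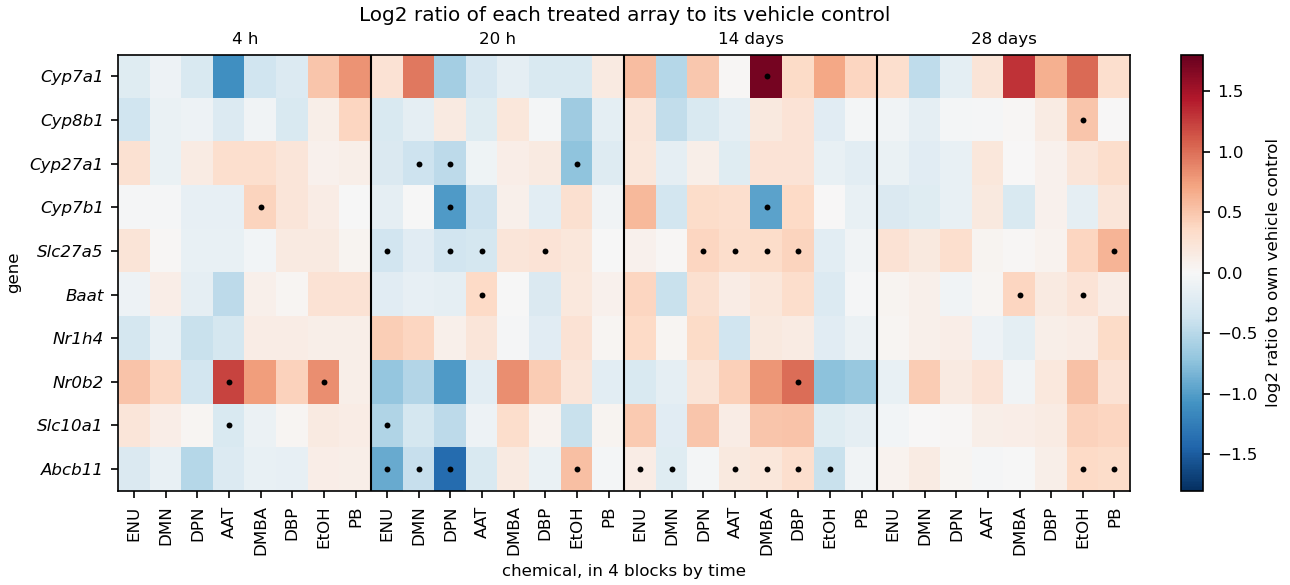
Log2 ratio of each treated array to its own vehicle control (colour scale, red higher, blue lower) for 10 genes (rows) and 8 chemicals at 4 times (columns). Black dots mark the 37 of 320 ratios larger than the largest difference between 2 saline controls of that time; the deepest blue is Abcb11 after DPN at 20 h (-1.39) and the deepest red Cyp7a1 after DMBA at 14 days (1.73).

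The lowest of the 320 ratios was that of Abcb11 after DPN at 20 h, and Abcb11 was lower after all 3 alkylating agents at that time. Its log2 signal was 10.67 after ENU beside 11.58 in the ENU control, 11.09 after DMN beside 11.50, and 9.89 after DPN beside 11.28. The 4 saline controls of 20 h read from 11.28 to 11.58. The aromatic mutagens gave 10.63 after AAT, 11.06 after DMBA and 10.77 after DBP beside 10.89 in olive oil, on both sides of their control. The log2 ratios were -0.91, -0.41 and -1.39 for ENU, DMN and DPN and -0.27, 0.17 and -0.12 for AAT, DMBA and DBP, and the largest difference between saline controls was 0.30. Of all probe sets tested, 16.6%, 16.1% and 23.8% lay beyond their own such difference at 20 h after ENU, DMN and DPN. After EtOH, in the array with the high 3′ to 5′ ratio, the ratio was 0.54, and after PB -0.04.

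The genotoxic estimate for Abcb11 at 20 h was -0.63 (SE 0.23) and did not pass (limma, unadjusted p = 0.0273, adjusted p = 0.965). Lower ratios were found in 5 of 6 chemicals. Without DPN the estimate was -0.41 (limma, adjusted p = 1), and with 1 fit of all 52 arrays, which shares the spread over times, the adjusted p was 0.0577 (limma). At 4 h the Abcb11 ratio was below 0 in 6 of 6 genotoxic chemicals, from -0.13 (DMN and DMBA) to -0.51 (DPN), with an estimate of -0.26 (SE 0.06, limma, unadjusted p = 0.00402, adjusted p = 0.415). All of these lay within the saline difference of 0.77 at that time. At 14 and 28 days the genotoxic estimates were 0.05 (SE 0.10) and 0.07 (SE 0.04).

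DPN at 20 h was the treatment with the most members beyond 2-fold. Abcb11 (-1.39), Cyp7b1 (-1.02) and Nr0b2 (-1.02) were 3 of 10, all lower, against 4.61% of all probe sets for that pair of arrays. The second probe set of Cyp7b1 gave -1.28. With the deposited values the ratios were -1.10, -0.74 and -0.74, so that 1 of the 3 stayed past 2-fold. For Nr0b2 the ratio did not exceed the largest difference between saline controls at 20 h, 1.25, whereas those of Cyp7b1 (0.38) and Abcb11 (0.30) were exceeded. Cyp7a1 read -0.62, Slc10a1 -0.47, Cyp27a1 -0.47 and Slc27a5 -0.34, and Cyp8b1 and Nr1h4 0.16 and 0.09. In the same pair of arrays the summed level of the hepatocyte markers differed by -0.25 and that of the acute phase genes by -1.06. Whether these had a part in the members' ratios was not tested.

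**Figure D4:**
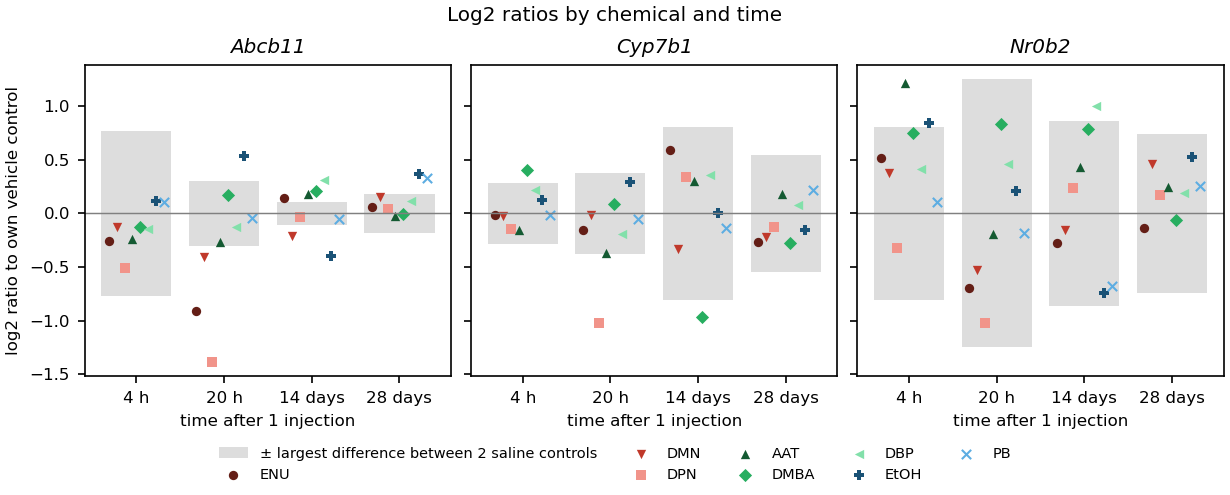
Log2 ratios to the own vehicle control (vertical axis) of Abcb11, Cyp7b1 and Nr0b2 for 8 chemicals by time, 1 point per array pair; grey bands span ± the largest difference between 2 saline controls of that time. At 20 h the ENU, DMN and DPN points of Abcb11 lie below the band of 0.30, and of Cyp7b1 the DPN point (-1.02) lies far below its band.

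Over the 4 times of each chemical, fitted in 1 model of 52 arrays, 0 of 14 member probe sets were called for DPN, against 0.414% of all probe sets, or for AAT, against 0.00545%. For ENU, DMN, DMBA, DBP, EtOH and PB it was 0 of 14, against 0% each. Abcb11 after DPN had the lowest estimate, -0.47 (SE 0.17, limma, adjusted p = 0.246), from ratios of -0.51, -1.39, -0.04 and 0.04 in order of time, and without 20 h it was -0.17. DMBA gave 0.63 (SE 0.26) for Cyp7a1 and 0.58 (SE 0.24) for Nr0b2, both with an adjusted p of 1 (limma). Alkylating minus aromatic agents gave 0 of 14 called, against 0%, and the estimate was below 0 in 9 of 10 genes, with Nr0b2 at -0.62 (SE 0.24, limma, adjusted p = 1.00). The median of the 10 genes was -0.13, beside 0.01 for all probe sets. Of the 10 hepatocyte markers 10 were below 0 (median -0.18) and of the 8 acute phase genes 8 (median -0.36), and their part in the members' estimates was not tested. The 3 aromatic mutagens share 1 control at each time, so their ratios are not independent of each other.

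AAT at 4 h had 2 of 10 genes beyond 2-fold, against 2.75% of probe sets for that pair of arrays. Cyp7a1 was 9.84 beside 10.94 in olive oil (ratio -1.10) and Nr0b2 8.89 beside 7.68 (ratio 1.21), which was the highest Nr0b2 level of any array at 4 h. For Cyp7a1 this lay within the largest difference between saline controls at 4 h, 1.32, and for Nr0b2 beyond it, 0.81. With quantile normalization these ratios were -0.99 and 1.36. After DMBA Cyp7a1 read 10.22 beside 8.49 in olive oil at 14 days (ratio 1.73, second probe set 1.44) and 9.82 beside 8.51 at 28 days (ratio 1.31, second probe set 0.72). The olive oil controls of 14 and 28 days were the lowest of the 5 vehicle controls for Cyp7a1 at their times, and AAT and DBP beside the same controls gave 0.03 and 0.34 at 14 days and 0.23 and 0.63 at 28 days. Cyp7b1 after DMBA at 14 days read 10.72 beside 11.68 (-0.97, second probe set -1.07). EtOH at 28 days gave 1.02 for Cyp7a1. The Cyp7a1 ratio after DMBA at 14 days exceeded the largest saline difference of 0.85, whereas those of 28 days, after DMBA and EtOH, lay within that of 1.48. The second Cyp7a1 probe set gave 1.21 after EtOH at 28 days. That was beyond its own largest saline difference of 0.90, within which its DMBA ratio of 0.72 lay.

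For the non-genotoxic chemicals, all 10 genes had positive estimates at 4 h and at 28 days, none of which passed. EtOH and PB share 1 saline control at each time, so their ratios are not independent of each other. At 4 h the median of the 10 genes was 0.13, beside 0.03 for all probe sets. Of the 10 hepatocyte markers 8 were positive too at 4 h (median 0.08). At 28 days the estimates were 0.40 for Slc10a1 (SE 0.07, limma, adjusted p = 0.0543), 0.50 for Slc27a5 (SE 0.11, adjusted p = 0.106 by limma) and 0.35 for Abcb11 (SE 0.07, adjusted p = 0.0848 by limma). Their median over the 10 genes was 0.31, beside 0.09 for all probe sets and 0.44 for the 10 hepatocyte markers, and the PB array of that time had the lowest median signal of all, 17.9. With the values as deposited the same genes read -0.42, -0.32 and -0.48, and the median of all probe sets moved to -0.49. Without PB the 3 estimates were 0.41, 0.39 and 0.36. At 14 days 9 of 10 genes were below 0, with Nr0b2 at -0.74 after EtOH and -0.68 after PB, and none passed. Both Nr0b2 ratios lay within the largest saline difference of that time, 0.86, and their shared control, 9.23, was the highest of the 5. The median of the 10 was -0.15, beside -0.02 for all probe sets, with 8 of 10 hepatocyte markers (median -0.08), 6 of 6 Kupffer cell markers (median -0.29) and 25 of 32 other pathway genes (median -0.12) below 0 too, and the part of the marker lists was not tested. At 20 h Cyp27a1 had the lowest estimate, -0.48 (SE 0.25), with -0.72 in the EtOH array and -0.23 for PB alone. In that EtOH array the 2 probe sets of Cyp7a1 gave -0.28 and -1.85 and those of Slc10a1 -0.40 and -1.72, while those of Baat gave 0.19 and 1.66 and those of Cyp7b1 0.29 and 1.20, so that paired probe sets differed by more than 2-fold for Cyp7a1, Slc10a1 and Baat. Over all 4 times the dimmer Baat probe set had an EtOH estimate of 1.01 (SE 0.29, limma, unadjusted p = 0.00161, adjusted p = 0.452), from ratios of 0.46, 1.66, 1.52 and 0.43 in order of time, each beyond its saline difference (0.29, 0.30, 1.12 and 0.42). Without 20 h it was 0.80 (limma, adjusted p = 1), and the brighter probe set gave 0.11 (SE 0.13). PB, beside the same controls, gave 0.53, 0.35, -0.07 and 0.57 for the dimmer Baat probe set. These lay beyond the saline difference at 4 h, 20 h and 28 days. Over the 32 ratios the Baat probe sets correlated at r = -0.30.

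Among the other pathway genes, Fgf15, the gut hormone that represses Cyp7a1 through Fgfr4, was the only one of 32 called in any class comparison. It read -0.90 (SE 0.09, limma, adjusted p = 0.0174) for the non-genotoxic class at 20 h, with both treated arrays at -0.90 because both were at the floor. It was at the floor in 8 of 13 arrays of 20 h and in 22 of all 52, and its control was the saline array that carried much Cyp2b10. Single ratios past 2-fold were seen for Nr1i2, a xenobiotic receptor (1.87 after DPN and 1.16 after ENU at 4 h, where controls ran from 6.78 to 7.93). Abcc2, which exports conjugates to bile, read 1.17 after DPN at 14 days (controls 8.21 to 8.68) and 1.05 after AAT at 20 h (controls 8.58 to 8.95). Abcc3, which exports bile acids to blood, read 1.23 after AAT at 20 h (controls 9.60 to 10.49). Slco1a4, an uptake carrier, read 1.02 after DMBA at 14 days (controls 7.95 to 9.27). Ratios of the pathway genes were not set beside saline differences. In the EtOH array of 20 h Akr1d1, a reductase of bile acid synthesis, read -1.70, Nr1i2 -1.52 and Nr1i3 -1.50. Abcb4, Slco1a1, Slco1b2, Hsd3b7, Nr5a2, Fgfr4 and Hnf4a stayed within 2-fold in all 32 arrays. For the pathway genes called in controls at 14 days, Cyp39a1 reached 1.33 after DMBA at 28 days and 1.05 at 14 days, and Hsd17b4 stayed within 2-fold. Cyp39a1 also read 1.04 after DPN at 14 days and 1.03 after EtOH at 28 days.

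The members were also compared with each other and with all genes by their 32 log2 ratios. These correlations are descriptions, since ratios that share a control or an array are not independent. Slc27a5 went with Abcb11 (r = 0.77) and with Slc10a1 (r = 0.74), and Slc10a1 with Cyp27a1 (r = 0.68) and Abcb11 (r = 0.63). Nr0b2 and Abcb11 had r = 0.60. Nr0b2 and Cyp7a1 had r = -0.10 and Nr0b2 and Cyp8b1 0.15. Of 10754 other genes, the 5 nearest to Cyp7a1 were Crybg1 (0.76, at the floor in 12 arrays), Rrbp1 (0.72), Apcs (0.70), 0610005C13Rik (0.70) and Mpeg1 (0.70). Those nearest to Cyp8b1 were Pglyrp2 (0.70), Slc25a13, Edem2, Lgmn and Csad (0.68 to 0.69). Those nearest to Nr0b2 were Fbxo9 (0.74), Tiparp (0.73), Uox (0.71), Prodh (0.69) and Serpinf1 (0.68). Each of these is the top of a ranking over all these genes.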

How the data were processed

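Liver RNA was measured on 52 Affymetrix arrays. The authors deposited linear intensity values for 22690 probe sets, and neither labels nor methods name the software and scaling behind them. Affymetrix controls (64 probe sets) were dropped. Array medians were brought to their common mean of 76.6, values under the 30th percentile (32.5, log2 5.02) were raised to it and log2 was taken. Probe sets above this floor in at least 4 arrays were tested (18349).

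Tests used limma 3.58.1 in R 4.3.3 (lmFit, eBayes with trend) with the control set as a fixed block, and a call needed an adjusted p under 0.05 (Benjamini-Hochberg, all probe sets). Residual degrees of freedom were 6 for classes at a time, 24 for chemicals over times and 12 for controls. Since arrays are pools, p-values do not measure the spread between mice. For classes at a time they measure the spread between the chemicals of a class. Both classes share that spread, which comes mostly from the 6 genotoxic chemicals. For chemicals over times it is the spread between the times of a chemical, shared by all chemicals. For controls it is how far the change over time differs between control sets, since the block removes constant differences between sets. The number of arrays limits the precision. A gene is given by its brightest tested probe set, with the other probe set of 4 genes given where the text names it. Other pathway genes are given as counts over a list of 38, with 14 by name and any that passed. The members and lists were chosen with earlier results of these data known. The fits were run on simulated data with planted changes, a check of the code that says nothing about these pools. Alternatives covered scaling, floor, filter, block, trend, a fit of all arrays, saline controls only and leaving out each chemical, time or control set. Python 3.11.15 with matplotlib 3.10.9 drew the figures.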

Additional observations from a re-analysis of the deposited data

Results flagged for a closer look

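Among 40 groups of 4 saline controls (10 genes, 4 times), Cyp7b1 at 28 days had 1 array far from the others. The DMN control read log2 12.63, the other saline controls 12.08 to 12.15, and the gap was 0.875 of the whole range. Chance alone gives such a gap in about 1 of 20 groups.

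In 5 of 80 comparisons every chemical of one class had ratios above 0 and every chemical of the other below 0 (6.25%), against 3.72% over the same comparisons of all tested probe sets. By time and contrast that background ran from 1.37% to 7.32%. These differences were not tested. At 4 h the genotoxic mean minus the non-genotoxic mean was -1.04 for Cyp7a1, -0.44 for Cyp8b1 and -0.35 for Abcb11. These 3 share the saline control of EtOH and PB at 4 h. For Cyp7a1 the ratios ran from -1.10 (AAT) to -0.09 (DMN) after the genotoxic chemicals, with 0.50 after EtOH and 0.81 after PB. All lay within the largest saline difference for that gene and time, 1.32. The second Cyp7a1 probe set was above 0 after DMN (0.14) and DBP (0.14). At 14 days the genotoxic mean minus the non-genotoxic mean was 0.39 for Slc27a5, and at 28 days the alkylating mean minus the aromatic mean of Cyp27a1 was -0.25.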

How the results depend on the processing

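The 20 counts of called member probe sets were recomputed under 383 alternatives, of which 352 were within 1.5 times the first count and 31 were not. At 20 h the non-genotoxic count of 0 ranged from 0 to 2 with 1 chemical left out (2 without PB, which leaves the EtOH array with the high 3′ to 5′ ratio, against 12% of all probe sets). At 28 days it was 1 with no filter and 0 to 1 with 1 chemical left out. Alkylating minus aromatic gave 6 without the block, against 15.4% of all probe sets. The controls of 20 h gave 1 in place of 0 after scaling to the 75th percentile, with quantile normalization, a floor at the 20th percentile, no floor with 16 added, the filter on every array or no trend. Those of 14 days (6) gave 0 with deposited values, 2 with the 75th percentile, 2 with quantile normalization, 1 with no filter, 2 with no block, 0 with saline only, 0 without the ENU and DMN controls of 14 days (chosen after seeing the data) and 0 to 7 with 1 set left out. Those of 28 days (1) gave 0 with deposited values, no filter, no block, saline only, without the ENU and DMN controls of 14 days, and without any 1 set. Of 564 alternatives for 32 single probe sets, 470 kept direction and call, 74 lost and 14 gained the call, and 6 turned, all for the non-genotoxic class at 28 days. With deposited values these were Slc10a1 at -0.42 and -0.55, Slc27a5 at -0.32 and Abcb11 at -0.48, and for the second Slc10a1 probe set -0.0098 with quantile normalization and -0.029 without the block. The cause of these changes was not tested. The control set as a block set each treated array against its own control. Depth does not apply to arrays, and none of the 14 probe sets was at the floor.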
